A study of Mus musculus with 15 samples.

Results

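Primary neurons of the mouse cortex were kept in 100 µM kainate for 24 h, and the 3 arrays of that group were compared with 6 vehicle controls. These are 9 of the 15 Illumina mouse bead arrays of the study, and each array was placed in its group by its title. All cultures were prepared from the cortex of Swiss Albino mice at gestation day 15 to 16 and were aged 5 days, per the labels. The labels give the controls a time of 0 and no agent, while the design text calls them vehicle controls. The other 6 arrays come from 5 h and 15 h of the same kainate dose, 3 of each. They enter the fit and are compared with 24 h further on. No label states whether the arrays of a group represent separate cultures. The p-values therefore cover the spread between these arrays alone, which may be technical. Hours in culture and the position on the beadchip cannot be told apart from the treatment, because every control has time 0 and each group occupied fixed positions. RNA was taken from the whole culture, so fewer cells of a type and less RNA per cell cannot be told apart in any result.

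Kainate opens the AMPA and kainate types of ionotropic glutamate receptor, which carry fast excitation in the cortex. The resulting depolarisation lets calcium enter through voltage-gated channels, NMDA receptors and some AMPA receptors. Calcium signals reach the nucleus through kinases and factors such as CREB, which binds the cAMP response element (CRE) and switches on immediate early genes. Prolonged activation of these receptors kills cultured neurons, a form of excitotoxicity, and the study profiled gene expression during that death.

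The arrays were of similar brightness, with median signals of 53.4 to 70.4 intensity units and a median of 34 or 35 beads behind each signal. Between 49.5% and 55.2% of the targets were detected on an array. Correlations across probes within a group were 0.978 to 0.996 for the controls and 0.986 to 0.994 at 24 h. Replicate 3 stood apart from the other 24 h arrays. It lay 1.5-fold or more from the mean of the other two on 1266 probes, against 298 for replicate 1 and 360 for replicate 2, and limma's array weights gave it 0.24 against 1.33 and 1.30. Control replicates 1 and 3 also had low weights, 0.29 and 0.39, against 0.78 to 1.53 for the other controls. Results that rest on these arrays are given with and without them.

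Nearly as many probes were higher as lower after 24 h of kainate. Of 14154 probes tested, 6087 passed an adjusted p of 0.05 (43.0%), 2989 of them higher (21.1%) and 3098 lower (21.9%), and 7074 had an unadjusted p below 0.05. Of the called probes 2868 had moved at least 1.5-fold (20.3% of those tested), 1463 higher and 1405 lower. At least 4-fold changes were fewer, 75 higher and 31 lower. The changed probes named 4688 genes, and 706 carried no symbol. On replicates 1, 2 and 3 of the 24 h group, 99.97%, 99.9% and 98.8% of the changed probes lay on the called side of the control mean. The calls were made from these same arrays, so most probes had to lie there. Without replicate 3, 5833 probes passed, and 5197 of the 6087 (85.4%) passed again in the same direction. The split between higher and lower depends on the scaling. When the arrays were centred on their medians in place of quantile normalization, the median change of all probes moved from -0.01 to -0.19 on the log2 scale, and 1510 probes were higher and 5234 lower. In the authors' deposited ratios the counts were 1686 and 4964. A group whose direction turns with the centring is marked as such below.

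**Figure D1:**
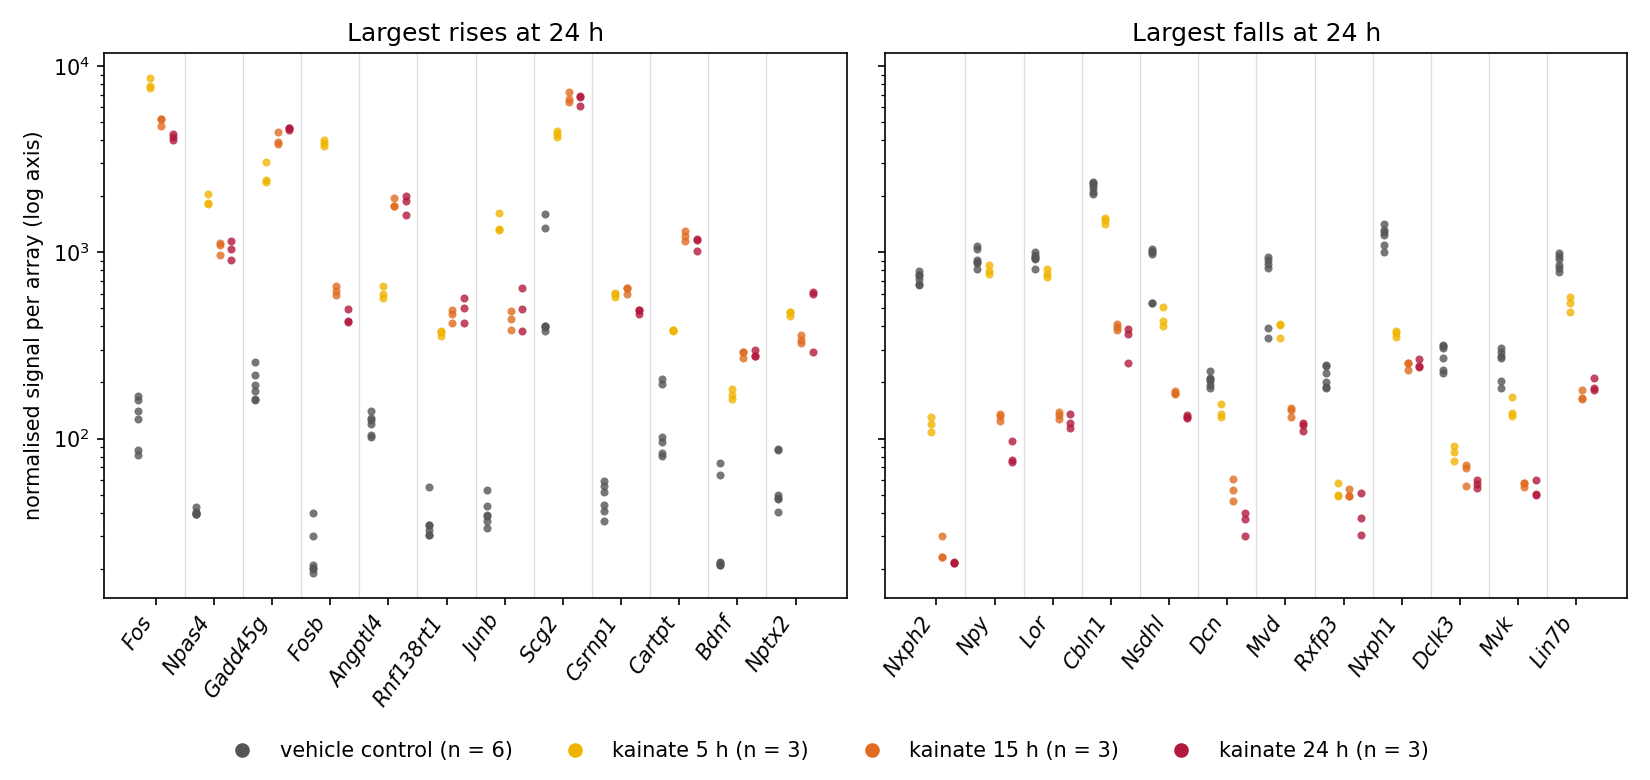
Normalised signal on a log axis of the 12 genes with the largest rises and the 12 with the largest falls at 24 h, with 1 point for each of the 6 control arrays and the 3 arrays at 5 h, 15 h and 24 h. In every gene the 24 h points lie outside the range of the control points, which was a condition of the selection.

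The 12 largest rises held 5 immediate early factors and 5 genes for secreted proteins, with the stress-induced gene Gadd45g and Rnf138rt1. Levels are normalised signals on a linear scale, given as the control median with its lowest and highest array and then 24 h replicates 1, 2 and 3. Changes are differences on the log2 scale with the SE of the fit (3 against 6 arrays). Fos (ILMN_2750515), which pairs with Jun proteins in the AP-1 factor, had 81.6 to 169 (median 134) in the controls and 4005, 4177 and 4333 at 24 h. It rose by 5.08 ± 0.19 (adjusted p = 1.78e-11, 33.8-fold). Npas4 (ILMN_1251414), a calcium-induced factor of active neurons, had 39.2 to 42.8 (median 39.6) in the controls and 1151, 1042 and 911 at 24 h, a rise of 4.68 ± 0.09 (adjusted p = 2.67e-15, 25.7-fold). The groups were far apart in both genes, and the 24 h arrays differed little from each other. Fosb (ILMN_2778279), a relative of Fos, read 18.9 to 39.7 in the controls, where 2 of 6 arrays detected it, and 498, 425 and 424 at 24 h (change 4.22 ± 0.19), so the size of that rise rests on a control level near background. Junb (ILMN_1220034), another AP-1 subunit, rose by 3.62 ± 0.16 from a control median of 38.7 (33.3 to 52.7) to 495, 639 and 376, with replicate 3 the lowest of the 24 h arrays. Csrnp1 (ILMN_2636403), a nuclear protein of the immediate early class, rose by 3.35 ± 0.13 from a control median of 47.6 (36.0 to 59.0) to 492, 465 and 488. The lowest 24 h array lay above the highest control in each of these genes, as the selection required. Gadd45g (ILMN_2744890), a stress-induced gene, went from a control median of 187 (161 to 257) to 4513, 4663 and 4621 (change 4.58 ± 0.13, 23.8-fold).

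Of the other 6 rises, 5 were of genes for secreted products. Bdnf (ILMN_1214228), the neurotrophin of active neurons, read 20.9 to 74.3 in the controls, detected on 2 of 6, and 278, 279 and 298 at 24 h (change 3.18 ± 0.36, adjusted p = 2.35e-06). Scg2 (ILMN_1237378), a granin of dense-core vesicles, had 1356, 404, 1603, 400.1, 376 and 397 in control replicates 1 to 6 and 6828, 6917 and 6113 at 24 h. Control replicates 1 and 3 were higher than the other 4, and the rise was 3.43 ± 0.40 with them and 4.07 without them. Cartpt (ILMN_2719756), a neuropeptide precursor, rose by 3.25 ± 0.25 from a control median of 98.9 (80.8 to 208) to 1171, 1178 and 1019. Nptx2 (ILMN_2620406), a pentraxin that clusters AMPA receptors, rose by 3.05 ± 0.25 from a control median of 48.8 (40.5 to 88.1) to 596, 611 and 293, and by 3.40 without replicate 3, the lowest of the 24 h arrays. The groups did not overlap in these genes, again a condition of the selection. Angptl4 (ILMN_2759365), a secreted inhibitor of lipoprotein lipase, rose by 3.92 ± 0.11 (15.2-fold) from a control median of 122 (102 to 141) to 1883, 1993 and 1591. Rnf138rt1 (ILMN_2597397) read 30.3 to 54.8 in the controls, detected on 4 of 6, and 417, 504 and 567 at 24 h (change 3.80 ± 0.16). Another probe of Npas4 (0.69), Bdnf (0.89) and Angptl4 (2.29) rose by less. Each of the 12 passed the threshold in all 21 alternative settings, though passing without 24 h replicate 3 was a condition of the selection.

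Promoter windows of the 12 rises and 12 falls were read from RefSeq (GRCm38.p6, 250 bases before to 50 after the start), where 10 and 9 of the genes had at least 1 window. The full CRE, TGACGTCA, was found in 2 of the 10 rising genes and 0 of the 9 falling genes, against 2.03% of all 27025 genes with a window. Its short form TGACG, searched on both strands and part of every full CRE, was found in 9 of 10 and in 1 of 9, against 23.0% of all genes. Bdnf had 7 windows and Csrnp1 had 4, which gives these genes more chances of a match than a gene with 1 window. The AP-1 motif TGACTCA was in 1 of 10 and 1 of 9 (5.95% of all genes). NF-Y's CCAAT was in 3 and 6 (41.1%), and the antioxidant motif TGACNNNGC in 4 and 1 (14.0%). The E-box CACGTG was in 1 and 0 (8.09%), the TATA box TATAAA in 3 and 1 (15.7%), and the E2F motif TTTGGCGC or TTTCGCGC in 0 and 0 (0.929%). These are matches of letters, not bound sites. Of the rising genes, 5 windows are printed because they hold the motif once in full (Scg2 at -68 and Cartpt at -112 from the start) or more than once in short form (Fos at -129 and -66, Npas4 at -179 and -169, and 1 of the 4 windows of Csrnp1 at -62 and -31). Capitals mark the motif on either strand.
Fos, chr12:85473640-85473939, plus strand: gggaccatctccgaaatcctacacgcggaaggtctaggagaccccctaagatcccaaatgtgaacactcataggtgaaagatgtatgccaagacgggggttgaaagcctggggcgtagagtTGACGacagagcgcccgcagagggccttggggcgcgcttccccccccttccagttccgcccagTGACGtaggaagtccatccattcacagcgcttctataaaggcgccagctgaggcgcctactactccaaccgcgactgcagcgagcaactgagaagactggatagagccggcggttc
Npas4, chr19:4989922-4990221, minus strand: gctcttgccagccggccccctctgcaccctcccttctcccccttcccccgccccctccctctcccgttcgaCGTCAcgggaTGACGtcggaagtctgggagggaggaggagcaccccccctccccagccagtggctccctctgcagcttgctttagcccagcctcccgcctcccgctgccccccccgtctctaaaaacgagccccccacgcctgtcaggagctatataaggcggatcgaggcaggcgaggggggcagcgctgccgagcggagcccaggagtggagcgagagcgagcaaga
Csrnp1, chr9:119983730-119984029, minus strand: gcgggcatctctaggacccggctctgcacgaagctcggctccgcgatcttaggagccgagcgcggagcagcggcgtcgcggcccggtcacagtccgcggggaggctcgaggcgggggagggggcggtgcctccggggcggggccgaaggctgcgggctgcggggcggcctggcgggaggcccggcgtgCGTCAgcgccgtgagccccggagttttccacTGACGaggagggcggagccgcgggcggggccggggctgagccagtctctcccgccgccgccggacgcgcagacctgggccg
Scg2, chr1:79439977-79440276, minus strand: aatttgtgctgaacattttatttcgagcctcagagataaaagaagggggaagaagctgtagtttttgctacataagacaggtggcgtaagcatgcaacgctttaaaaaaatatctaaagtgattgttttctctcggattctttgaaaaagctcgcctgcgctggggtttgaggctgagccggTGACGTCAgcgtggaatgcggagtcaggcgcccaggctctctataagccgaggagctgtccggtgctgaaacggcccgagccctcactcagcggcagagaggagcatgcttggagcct
Cartpt, chr13:99900634-99900933, minus strand: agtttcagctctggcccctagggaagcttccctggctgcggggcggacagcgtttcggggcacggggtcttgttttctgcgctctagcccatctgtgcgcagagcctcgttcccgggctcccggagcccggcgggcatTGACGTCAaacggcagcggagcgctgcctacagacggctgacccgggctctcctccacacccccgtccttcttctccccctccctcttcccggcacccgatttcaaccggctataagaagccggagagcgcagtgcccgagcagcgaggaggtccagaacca

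The 12 largest falls included genes for secreted synaptic ligands, a neuropeptide and enzymes of cholesterol synthesis. Nxph2 (ILMN_1251624), a secreted ligand of neurexins, had 666 to 788 (median 736) in the controls and was detected on 0 of the 3 arrays at 24 h, where it read 21.6, 21.5 and 21.5. It was at least 27.6-fold lower, the control mean against the higher of the probe's signal and the lowest detected signal of each 24 h array (adjusted p = 2.67e-15). Its relative Nxph1 (ILMN_2659896) fell 4.85-fold, from a control median of 1262 (1007 to 1421) to 246, 267 and 243. Npy (ILMN_1243928), a neuropeptide of cortical interneurons, fell 11.3-fold from a control median of 897 (817 to 1083) to 97.4, 77.1 and 75.2 (change -3.49 ± 0.11, adjusted p = 1.23e-12). Cbln1 (ILMN_1252953), which bridges neurexins and glutamate delta receptors, went from a control median of 2257 (2067 to 2371) to 255, 363 and 385 (change -2.76 ± 0.11). Lin7b (ILMN_1260389), a scaffold protein of synapses and junctions, changed by -2.20 ± 0.10 from a control median of 887 (781 to 989) to 183, 211 and 186. The selection required the highest 24 h array to lie below the lowest control, and in these 5 genes it lay far below. Rxfp3, the relaxin-3 receptor, changed by -2.46 ± 0.14 (from a control median of 212, range 186 to 248, to 37.7, 30.5 and 51.3) and the kinase gene Dclk3 by -2.28 ± 0.13 (from a control median of 289, range 226 to 319, to 56.8, 54.2 and 60.2). Lor, named for the skin protein loricrin, changed by -2.92 ± 0.09 (from a control median of 935, range 817 to 1007, to 122, 113 and 136), and Dcn, the matrix proteoglycan decorin, by -2.54 ± 0.11 (from a control median of 206, range 187 to 230, to 39.7, 37.2 and 30.0). All 3 arrays at 24 h lay below all 6 controls in these 4 genes, by the same condition. Of the other 3 probes of Dcn, the brightest changed by -2.44 and the next by -2.38, while the fourth was detected on 2 of 6 controls and on none of the 24 h arrays and had a fitted difference of -0.33.

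Sterol enzymes were the other members of the 12 largest falls. Mvd (ILMN_2645275), mevalonate diphosphate decarboxylase, had 348, 827, 392, 869, 948 and 909 in control replicates 1 to 6 and 110, 118 and 122 at 24 h. Control replicates 1 and 3 were the lowest controls and still far above the 24 h arrays, and the change was -2.51 ± 0.27 with them and -2.93 without them. Nsdhl (ILMN_2594525), a sterol dehydrogenase, showed the same order, with 531, 979, 534, 1035, 1022 and 999 in the controls and 128, 130.3 and 134 at 24 h (change -2.64 ± 0.20). Mvk (ILMN_1239601), mevalonate kinase, changed by -2.24 ± 0.15 from a control median of 274 (186 to 307) to 49.99, 60.04 and 50.4. All 12 falls passed in the 21 alternative settings, where passing without 24 h replicate 3 was again a condition of the selection.

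Gene lists are described next by how many measured members rose or fell, each gene by its brightest probe. Over all 9824 genes so measured, 22.7% rose and 22.3% fell and after median centring 11.1% rose and 39.1% fell at a median change of -0.21. Members described beside the 3 largest changes of a list were chosen after their values were seen.

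**Figure D2:**
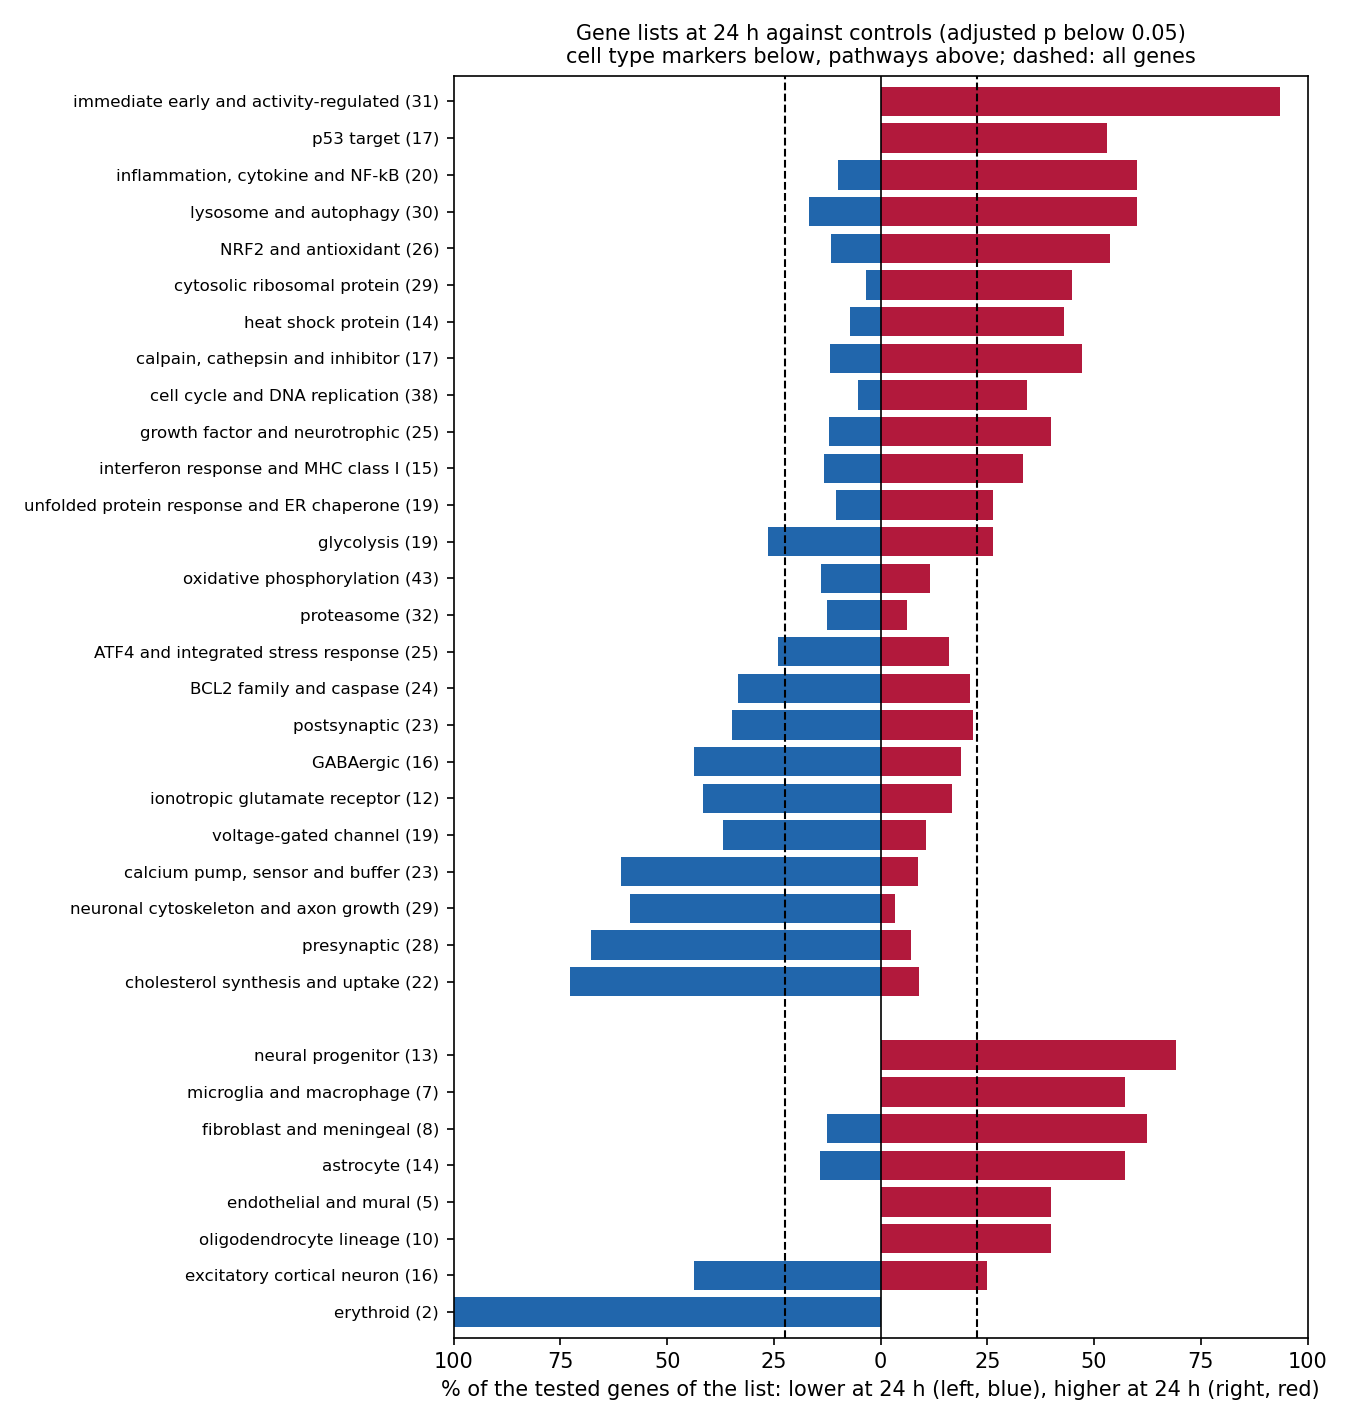
Share in percent of the measured members of each gene list that rose (right) and fell (left) at 24 h against the controls, with the number of members in brackets and the shares over all 9824 genes as dashed lines. Pathway lists are above and cell type markers below. Immediate early genes extend far to the right (29 of 31) and presynaptic and cholesterol genes far to the left (19 of 28 and 16 of 22).

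Immediate early and activity-regulated genes stayed high through 24 h. Of 31 measured, 29 rose and 0 fell, with a median of 2.12 (28 and 1 at 1.89 after median centring). Their signals summed to 8451 to 9562 over the control arrays and 32374 to 33454 at 24 h. Per1, a circadian clock gene, rose from a control median of 81.5 (74.6 to 89.9) to 514, 438 and 446 (change 2.52 ± 0.10). Dusp1, a phosphatase that switches off MAP kinases, rose from a control median of 1046 (956 to 1142) to 4303, 4319 and 5050 (change 2.12 ± 0.08), and its relative Dusp4 by 2.55 ± 0.09. Egr1, a zinc finger factor, had 513 to 931 (median 857) and 2032, 2064 and 2462, a rise of 1.51 ± 0.16 that kept the groups apart. Nr4a2, an orphan nuclear receptor, rose from a control median of 175 (162 to 215) to 1023, 1071 and 644, with replicate 3 the lowest. Arc, which acts at synapses in AMPA receptor uptake, rose by 2.05 ± 0.11 (from a control median of 47.9, range 36.4 to 53.3, to 191, 178 and 208). Klf4 and Gadd45b were detected on none of the controls and were at least 5.13-fold and 3.35-fold higher. Maff (1.54) and Crem (1.30) rose on the brighter probe, while another probe of each did not pass (0.09 and 0.14). Egr3 (0.03) and Homer1 (-0.16) did not pass, but Homer1 was lower after median centring (-0.58) and without control replicates 1 and 3 (-0.25).

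Among ionotropic glutamate receptor genes, the targets of kainate itself, 2 of 12 rose and 5 fell, at a median of -0.19 (2 and 5 at -0.31 after median centring, and a median of -0.37 without control replicates 1 and 3). Grik1, a kainate receptor subunit, had 131 to 229.8 (median 216) in the controls and 37.8, 48.5 and 46.6 at 24 h. It fell 4.33-fold (change -2.12 ± 0.17, adjusted p = 4.83e-08). Neto1, an auxiliary subunit of kainate receptors, changed by -1.57 ± 0.20 from a control median of 92.8 (76.9 to 149) to 48.2, 30.7 and 24.6, where 2 of the 3 arrays detected it. Gria1, an AMPA receptor subunit, had 389 to 961 (median 809.5) and 337, 288 and 161, a change of -1.48 ± 0.26 with replicate 3 and -1.16 without it. Cnih2, which escorts AMPA receptors to the surface, changed by -1.05 ± 0.16. The NMDA receptor subunit gene Grin2c rose by 0.69 ± 0.17, and Grin2b, detected on 1 of 6 controls, by 0.55 ± 0.16, a call that was lost without replicate 3 (0.32). On the mean over the list, replicate 3 stood at -0.55 relative to the controls and the other 24 h arrays at -0.33 and -0.34.

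Presynaptic genes fell as a majority. Of 28 measured, 2 rose and 19 fell, with a median of -0.54, and 3 rose and 17 fell without replicate 3. After median centring the counts were 1 and 21. Doc2b, a calcium sensor of vesicle release, fell from a control median of 289.9 (242 to 414) to 73.2, 60.8 and 81.8 (change -2.09 ± 0.15). Syn2, a synapsin that tethers vesicles, had 779 to 1700 (median 1537) in the controls and 306, 385 and 235 at 24 h (change -2.05 ± 0.24). The groups did not overlap in either gene. Slc17a7, the vesicular glutamate transporter of cortical excitatory neurons, changed by -1.30 ± 0.24 (from a control median of 423, range 292 to 747, to 170, 186 and 198, adjusted p = 0.000364) and Syt1, the fast calcium sensor, by -0.95 ± 0.14. Against this direction, the vesicle priming gene Unc13a rose by 1.28 ± 0.20.

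Postsynaptic genes were divided, with 5 of 23 rising and 8 falling at a median of -0.32. Without control replicates 1 and 3 the numbers were 5 and 13, and after median centring 4 and 14. Lrrtm1, an adhesion protein of excitatory synapses, rose from a control median of 325 (296 to 584) to 1649, 1783 and 1336 (change 2.06 ± 0.19, adjusted p = 3.6e-07), and the scaffold gene Dlg2 from a control median of 105 (103 to 113) to 242, 256 and 243 (change 1.22 ± 0.07). Nrgn, a calmodulin-binding protein of dendrites, fell from a control median of 742 (649.5 to 852) to 322, 403 and 282 (change -1.16 ± 0.11). The 24 h arrays lay outside the control range in all 3 genes.

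GABAergic genes had 3 of 16 rising and 7 falling, at a median of -0.17 (2 and 12 after median centring). Beside Npy, the neuropeptide gene Cort fell from a control median of 149 (133 to 252) to 44.1, 39.6 and 29.2 (change -2.16 ± 0.19), with 2 of 3 arrays at 24 h detecting it. Slc32a1, the vesicular GABA transporter, fell from a control median of 1099 (1035 to 1210) to 374, 391 and 432 (change -1.48 ± 0.09), and Gad1, which makes GABA, from a control median of 2064 (1727 to 2599) to 1015, 824 and 1239 (change -1.03 ± 0.14). Sst (-0.03) did not pass, but was lower after median centring (-0.53). Pvalb, a calcium buffer of fast-spiking interneurons, was detected on none of the controls and was at least 1.78-fold higher at 24 h. Dlx1 rose from a control median of 940 (832.5 to 1078) to 1783, 1614 and 1631 (change 0.84 ± 0.09). Dlx2 rose by 0.66 ± 0.11, and did not pass after median centring (0.21). Genes of this list moved both ways.

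Genes of the neuronal cytoskeleton and axon growth had 1 of 29 rising and 17 falling, with a median of -0.47. Replicate 3 was the lowest array on the mean of this list (-0.62 against -0.44 and -0.43), and without it 13 fell, at a median of -0.26. After median centring 0 rose and 24 fell. Tubb3, the neuronal tubulin, fell from a control median of 291 (252 to 336) to 89.4, 113 and 126 (change -1.43 ± 0.12). Crmp1, a mediator of semaphorin signals, fell from a control median of 6945 (6078 to 7093) to 2744, 2608 and 2443 (change -1.39 ± 0.08), and Dcx, a microtubule protein of young neurons, changed by -0.80 ± 0.08. Map2 did not pass on its brightest probe (-0.28), although other probes of it fell (-0.46 and -0.42).

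In the voltage-gated channel list 2 of 19 rose and 7 fell, with a median of -0.14. Without control replicates 1 and 3 the median was -0.37 (2 and 9), and after median centring -0.42 (1 and 8). With 1 array left out it lay within -0.23 to -0.08. Kcnab1, a potassium channel beta subunit, fell from a control median of 295 (182 to 321) to 51.3, 49.6 and 77.6 (change -2.16 ± 0.19), and the sodium channel subunit gene Scn3b changed by -1.36 ± 0.16. The sodium channel gene Scn1a moved the other way, from a control median of 75.7 (53.2 to 84.8) to 188, 195 and 144 (change 1.31 ± 0.17). Calcium pumps, sensors and buffers had 2 of 23 rising and 14 falling, with a median of -0.34 (1 and 18 after median centring), and 9 fell without 24 h replicate 1. Hpca, the calcium sensor hippocalcin, fell from a control median of 855 (771 to 1009) to 234, 289.7 and 259 (change -1.75 ± 0.12), and its relative Vsnl1 changed by -1.29 ± 0.12.

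**Figure D3:**
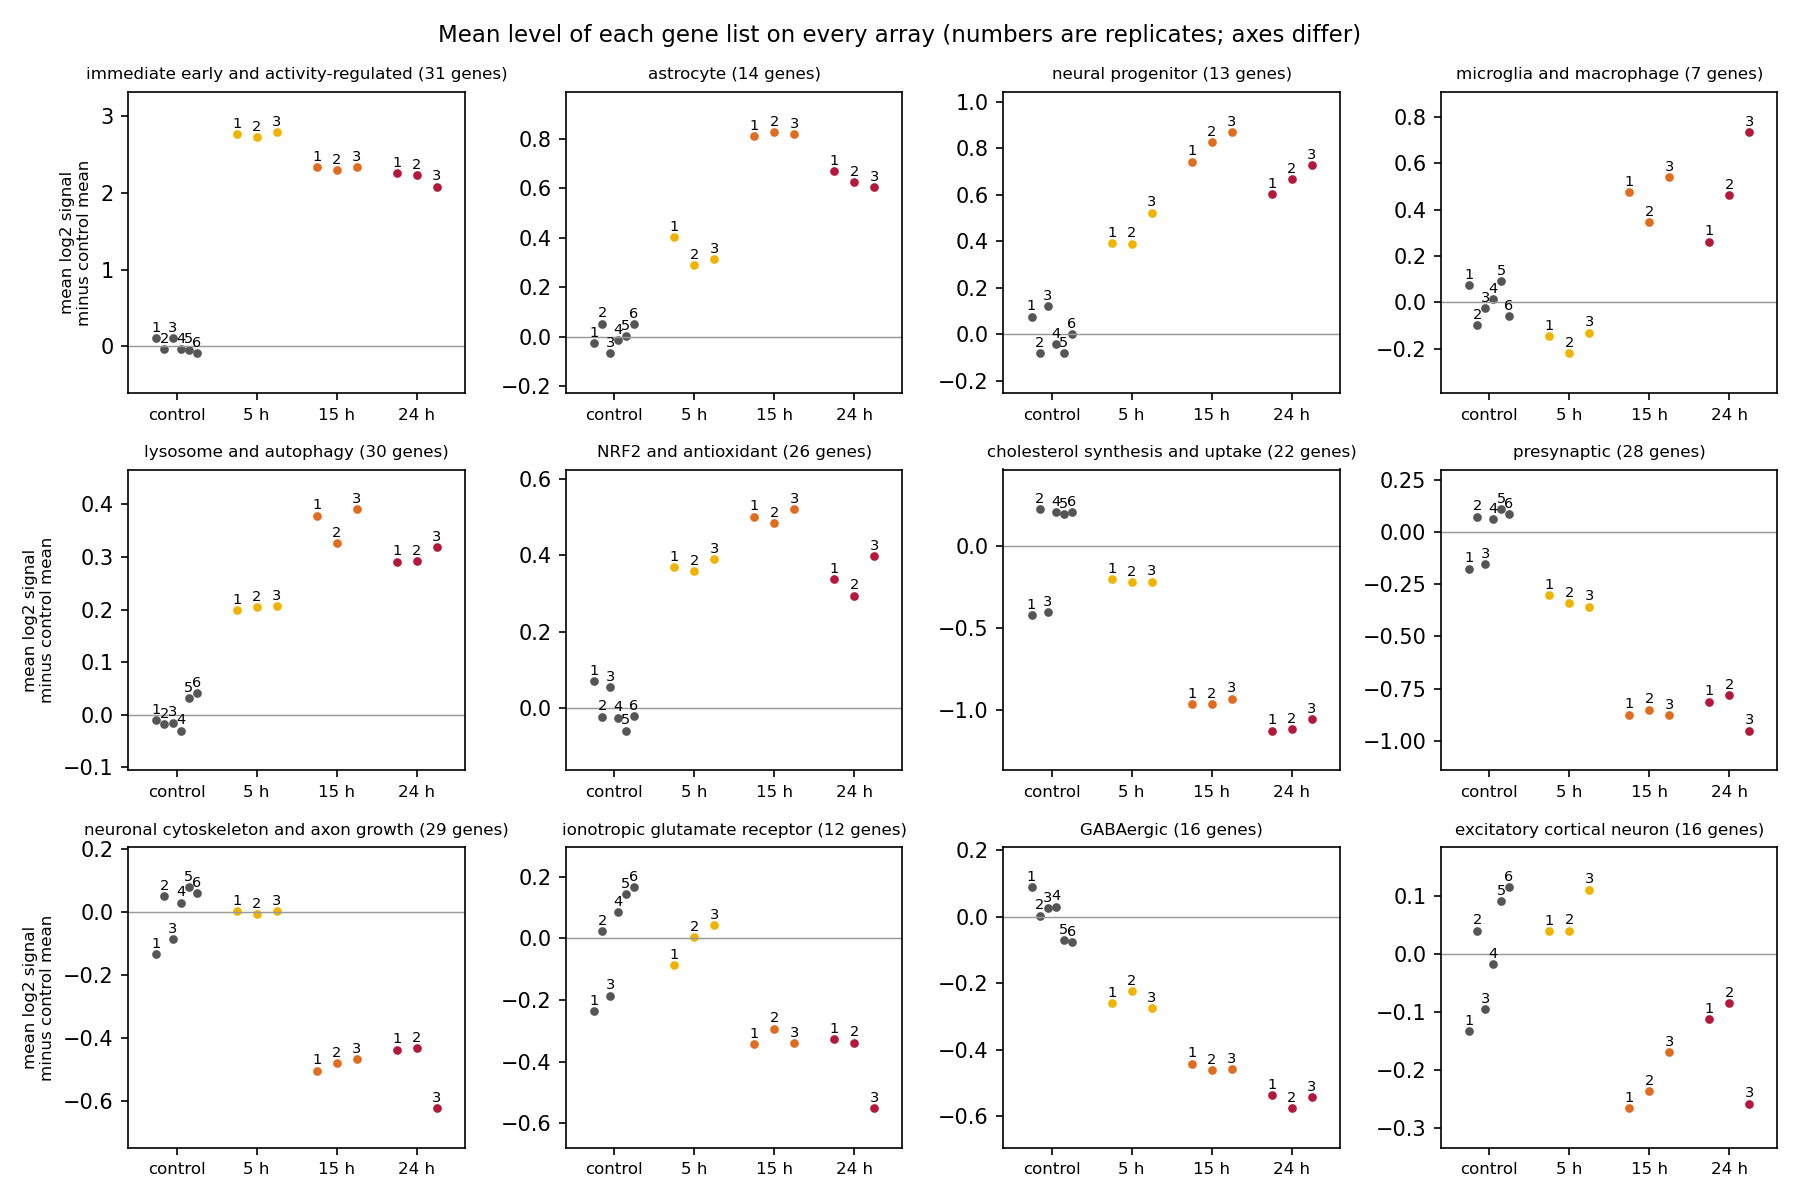
Mean log2 signal of 12 gene lists on each of the 15 arrays, relative to the control mean of each gene, with the replicate number beside each point and a separate axis for each list. The 24 h arrays lie below the controls on presynaptic, cytoskeleton and cholesterol genes and above them on immediate early and astrocyte genes, and control replicates 1 and 3 sit lower than the other controls on the cholesterol list (-0.42 and -0.40 against 0.19 to 0.22).

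Markers of cells other than neurons moved beside these neuronal lists. Of 17 astrocyte markers listed, 14 were tested, and 8 rose and 2 fell at a median of 0.68 (6 and 2 at 0.38 after median centring). Their summed signal was 16896 to 17794 over the controls and 30237 to 33827 at 24 h. Gfap, the astrocyte intermediate filament, rose from a control median of 47.6 (42.7 to 56.5) to 164, 158 and 129 (change 1.63 ± 0.10), the gap junction gene Gja1 from a control median of 2947 (2817 to 3150) to 6801, 6828 and 9723 (1.38 ± 0.10), the neurotensin receptor gene Ntsr2 by 1.45 ± 0.09 and the apolipoprotein gene Apoe by 1.31 ± 0.09. Aqp4, the water channel of astrocyte endfeet, had 227 to 320.5 (median 284) in the controls but 536, 604 and 288 at 24 h. Replicate 3 lay within the control range, and the rise of Aqp4 did not pass after median centring (0.38). Slc1a3 rose by 0.62 ± 0.09, from a control median of 6084 (5951 to 6187) to 8957, 8368 and 10900. It did not pass after median centring either (0.27). The 2 that fell were Acsl6 (-0.55) and Aldoc (-0.27), and another probe of each did not pass (-0.25 and -0.17). Glul (0.54), Fgfr3 (0.42), Sparcl1 (-0.12) and Slc4a4 (-0.16) did not pass. Of 13 neural progenitor markers 9 rose and 0 fell, at a median of 0.68, and the summed signal was 9152 to 10087 in the controls and 19718 to 22134 at 24 h. Vim, the intermediate filament vimentin, rose from a control median of 2182 (2113 to 2341) to 5420, 5697 and 5853 (change 1.36 ± 0.08), Ednrb, an endothelin receptor, by 1.43 ± 0.08, the membrane protein gene Prom1 by 1.14 ± 0.12 and Notch1 by 1.12 ± 0.13. Most of the sum came from Ednrb, Vim and Sox9, all of which are expressed by astrocytes as well. Nes (0.25), Hes1 (-0.03), Hes5 (0.43) and Fabp7 (-0.64) did not pass. Hes5 passed as a rise without 24 h replicate 3 (0.70) and without control replicates 1 and 3 (0.60).

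Of 16 microglia and macrophage markers listed, 7 were detected often enough to be tested, and 4 rose and 0 fell. Their signals summed to 296 to 329 in the controls and 479 to 754 at 24 h, highest on replicate 3, and most of that rise came from Lgals3. Lgals3, galectin-3, had 102 to 123 (median 109) and 263, 248 and 457 (change 1.49 ± 0.15), and the complement gene C1qc rose by 0.71 ± 0.12. Its partner C1qb, detected on 1 of 6 controls, had 25.5 to 40.6 (median 28.4) in the controls and 43.4, 39.9 and 76.2 at 24 h, where replicate 2 lay within the control range. Its change was 0.78 ± 0.18 with replicate 3, the highest, and 0.49 without it, while Cx3cr1 (0.04) and Aif1 (-0.16) did not pass. Among 10 oligodendrocyte lineage markers tested of 14 listed, 4 rose and 0 fell at a median of 0.15, which turned to -0.11 after median centring, with sums of 11334 to 12681 and 12874 to 15628. Most of these sums came from Olig1, which did not pass (0.16). It had 8605 to 9723 in the controls and 9768, 9768 and 11940 at 24 h, with replicate 3 the highest. Olig2, a factor of the lineage, rose by 0.82 ± 0.18 (from a control median of 65.4, range 57.4 to 89.5, to 159, 133 and 84.1), with replicate 3 inside the control range. Cldn11, a tight junction gene, had 94.8 to 132 (median 111) in the controls and 152, 135 and 270.1 at 24 h, a change of 0.69 ± 0.17 that was 0.38 without replicate 3. Cspg4 rose by 0.36 ± 0.11. Neither Cldn11 nor Cspg4 passed after median centring (0.42 and 0.09), and Mbp (-0.09) did not pass. Fibroblast and meningeal markers, 8 tested of 14 listed, had 5 rising and 1 falling, with sums of 3087 to 3417 and 3153 to 3781. The 1 that fell was Dcn (-2.44 on its brightest probe, with the other probes as above), while the matrix-associated gene Fstl1 rose by 1.19 ± 0.08 and the growth factor gene Igf2 by 0.99 ± 0.15. Of 5 endothelial and mural markers tested of 12 listed, 2 rose, the smooth muscle actin gene Acta2 and the pericyte receptor gene Pdgfrb (0.82). Acta2 had 332 to 593 (median 423) in the controls and 677, 645 and 1321 at 24 h, a change of 0.95 ± 0.22 with replicate 3, the highest, and 0.62 without it. Its other probes were at 0.14, which did not pass, and 0.68. The list's sums, most of which came from Acta2, were 461 to 723 and 823 to 1483, and the endothelial marker Pecam1 was detected on none of the 9 arrays. The 2 erythroid genes measured, Hba-a1 (-0.73) and Hbb-bh1 (-0.36), fell, with sums of 83 to 113 in the controls and 58 to 69 at 24 h, and Hba-a1 alone passed without 24 h replicate 3.

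Excitatory cortical neuron markers had 4 of 16 rising and 7 falling, at a median of -0.28 (2 and 9 at -0.55 after median centring). Their summed signal was 11827 to 14693 in the controls and 11573 to 14282 at 24 h, so the ranges overlapped. Slc17a7 fell, as above, while Rorb, a nuclear receptor of layer IV neurons, rose from a control median of 140.4 (137 to 144) to 289.8, 311 and 259 (change 1.03 ± 0.08). Neurod2, a factor of excitatory neurons, had 1050 to 1363 (median 1155) in the controls and 2462, 2420 and 1308 at 24 h, where replicate 3 lay within the control range (change 0.76 ± 0.16 with it, 1.06 without it and 0.29, not passing, after median centring). The part of the cell types in the changes of the neuronal lists was not tested.

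Cholesterol synthesis and uptake genes had the lowest median of the 33 lists, with quantile normalization and with median centring. Of 22 measured, 2 rose and 16 fell at a median of -1.29. The counts were 1 and 15 at -1.34 without 24 h replicate 3, 0 and 17 at -1.59 without control replicates 1 and 3, and 0 and 18 at -1.57 after median centring. Fdps, farnesyl diphosphate synthase, fell from a control median of 11340 (8292 to 12240) to 2524, 2531 and 2172 (change -2.12 ± 0.13, adjusted p = 3.06e-09). Sqle, squalene epoxidase, fell from a control median of 6595 (3626 to 6991) to 1898, 2072 and 2064 (change -1.46 ± 0.19). Insig1, which holds the sterol sensor in the endoplasmic reticulum, changed by -1.51 ± 0.24. Fdft1, squalene synthase, was not detected at 24 h and was at least 2.06-fold lower. The condensing enzyme gene Hmgcs1 (-0.07) did not pass. Srebf2, the factor that activates these enzymes, rose by 0.40 ± 0.15 (adjusted p = 0.0476), a call lost after median centring (0.01) and without control replicates 1 and 3 (0.24).

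In the list of the BCL2 family and caspases, which carry apoptosis, 5 of 24 rose and 8 fell, with a median of 0.03 that became -0.27 after median centring. Over leaving out each array in turn, 2 to 6 rose and 5 to 8 fell. Pmaip1, the BH3-only protein Noxa, read 22.3 to 49.7 in the controls, detected on 2 of 6, and 163, 151 and 234 at 24 h (change 2.50 ± 0.22, adjusted p = 2.04e-07). Hrk, another BH3-only gene, went down from a control median of 103 (98.1 to 113) to 34.7, 49.1 and 52.9 (change -1.21 ± 0.12), as did the survival gene Bcl2l1 (-0.80 ± 0.15). Casp9, the initiator caspase of the mitochondrial pathway, fell from a control median of 707 (617 to 806) to 327, 321 and 463 (change -0.94 ± 0.12) and its activator Apaf1 changed by -0.55 ± 0.15. Casp6, an effector caspase, rose by 1.04 ± 0.09 on its brighter probe, while another probe did not pass (0.26).

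Targets of p53 had 9 of 17 rising and 0 falling, at a median of 0.36, but 3 and 2 at -0.02 after median centring. Beside Pmaip1, the cell cycle inhibitor Cdkn1a had 864 to 1295 (median 1089) in the controls and 2341, 2205 and 1110 at 24 h. Replicate 3 lay within the control range, and the change was 0.74 ± 0.18 with it and 1.08 without it. After median centring Cdkn1a did not pass (0.29). Phlda3, an inhibitor of AKT, rose by 0.65 ± 0.10.

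Stress pathway lists are set beside the shares over all genes, 22.7% rising and 22.3% falling. For ATF4 and the integrated stress response, 4 of 25 rose (16%) and 6 fell (24%), near those shares. The median was -0.08 (3 and 12 at -0.45 after median centring). Without control replicates 1 and 3, 11 rose and 5 fell at 0.10, and without control replicate 1 alone 7 rose. Ppp1r15a, which restores translation, rose from a control median of 114 (91.0 to 152) to 358, 414 and 292 (change 1.60 ± 0.14) and Cebpb by 1.26 ± 0.18. Nupr1, a stress-induced chromatin protein, fell from a control median of 151 (128 to 279.7) to 74.0, 69.3 and 70.7 (change -1.26 ± 0.20). The groups did not overlap in these genes. Ddit3 (0.35) and Asns (-0.01) did not pass, though both passed as rises without control replicates 1 and 3 (0.60 and 0.26). Unfolded protein response genes had 5 of 19 rising (26.3%, near the share over all genes) and 2 falling (10.5%). The median was 0.13 and became -0.09 with 0 rising after median centring. Hspa5, the chaperone BiP, rose by 0.58 ± 0.17 (adjusted p = 0.0114), a call lost without 24 h replicate 1 and after centring (0.41). Centring also ended the call of the translocon gene Sec61b (0.59 to 0.14), whose other probe fell (-0.27). The disulfide isomerase gene Pdia6 changed by -0.53 ± 0.16, which did not pass without 24 h replicate 3 (-0.45). Without control replicates 1 and 3, 5 rose and 4 fell at 0.07, and without 24 h replicate 3 the median was 0.07. Of 14 heat shock genes 6 rose (42.9%) and 1 fell (7.1%), at 0.13, which became -0.17 with 5 falling after centring. Bag3, a partner of heat shock proteins in protein clearance, rose from a control median of 276 (242 to 288) to 785, 803 and 629 (change 1.45 ± 0.09), the small heat shock gene Hspb8 by 1.07 ± 0.14 and Hspa4 by 1.05 ± 0.16. Without 24 h replicate 3 the heat shock counts were 4 and 2.

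NRF2 and antioxidant genes had 14 of 26 rising and 3 falling, at a median of 0.39 (7 and 5 at 0.01 after median centring). Gsta4, which conjugates lipid peroxidation products, rose from a control median of 1051 (889.7 to 1173) to 2753, 2853 and 3060 (change 1.48 ± 0.10). Hmox1, heme oxygenase, rose from a control median of 378 (359.7 to 694) to 1128, 1129 and 796, and Ephx1, an epoxide hydrolase, by 1.02 ± 0.08. In the lysosome and autophagy list 18 of 30 rose and 5 fell at 0.37, which turned to 8 and 10 at -0.09 after centring. Cd63, a lysosomal membrane protein, rose from a control median of 2432 (2039 to 2718) to 5728, 5903 and 6632 (change 1.32 ± 0.10), the autophagy gene Wipi1 by 1.21 ± 0.11 and the protease gene Tpp1 by 1.1 ± 0.12. Without 24 h replicate 2 the lysosome counts were 14 and 2, and without control replicate 5 or 6, 3 fell. Calpains, cathepsins and their inhibitors had 8 of 17 rising and 2 falling at 0.18 (-0.07 after centring). The cathepsin gene Ctsz rose by 0.90 ± 0.10 and the protease inhibitor gene Serpina3n by 1.09 ± 0.09, while the calpain gene Capn5 fell from a control median of 1382 (1130 to 1548) to 549, 647 and 598 (change -1.18 ± 0.10).

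Inflammation, cytokine and NF-kB genes had 12 of 20 rising and 2 falling at a median of 0.35, and 8 and 2 without replicate 3. Stat3, a cytokine-activated factor, had 482 to 710.2 (median 611) and 1281, 1397 and 818 (change 0.95 ± 0.16), and Vcam1, an adhesion protein, rose by 1.00 ± 0.14. Socs2, a brake on growth hormone signals, fell from a control median of 1952 (1437 to 2217) to 537, 556 and 523 (change -1.76 ± 0.13). All 3 arrays at 24 h lay outside the control range for each of these genes. In the interferon and MHC class I list 5 of 15 rose and 2 fell, at a median of 0.25, but 3 and 1 at 0.12 without 24 h replicate 3 and 3 and 1 without replicate 1. B2m, the light chain of MHC class I, rose from a control median of 458 (404 to 507) to 1080, 1176 and 1407 (change 1.43 ± 0.10), and the transporter gene Tap2 by 1.08 ± 0.15. Irf1, an interferon-induced factor, rose by 1.12 ± 0.15 on its brighter probe while its other probe was not detected on any of the 9 arrays. Growth factor and neurotrophic genes had 10 of 25 rising and 3 falling, at a median of 0.16, which was 0.35 with 12 rising and 3 falling without 24 h replicate 3 and 0.07 with 8 and 6 after median centring. Beside Bdnf, the heparin-binding factor Mdk rose by 1.25 ± 0.14 and the binding protein gene Igfbp5 by 1.13 ± 0.11, whereas Vegfa fell from a control median of 1160 (1001 to 1508) to 543, 534 and 671 (change -1.03 ± 0.13).

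The lists of energy supply and protein turnover had medians within 0.21 of 0, and those of oxidative phosphorylation, glycolysis, proteasome and ribosomal genes turned or moved with the scaling. Oxidative phosphorylation had 5 of 43 rising and 6 falling at -0.07 (0 and 26 at -0.43 after centring). The counts were 8 and 6 without control replicates 1 and 3, and 4 and 3 without 24 h replicate 1. Its largest changes were small, at 0.63 ± 0.11 for the ATP synthase gene Atp5d and 0.45 ± 0.11 for the complex III gene Uqcrh, both lost after centring, and -0.41 ± 0.10 for Atp5g3. Glycolysis had 5 of 19 rising and 5 falling, with 10 falling without control replicates 1 and 3, and 2 and 12 after centring. Pdk4, which diverts pyruvate from the mitochondria, rose from a control median of 98.4 (72.4 to 111) to 392, 386 and 509.7 (change 2.18 ± 0.14), and Hk1, the brain hexokinase, changed by -0.82 ± 0.14. Pfkp, a phosphofructokinase, rose by 1.04 ± 0.15, while its other probe did not pass (0.51). Of 32 proteasome genes 2 rose and 4 fell at -0.03 (0 and 18 after centring), the named ones by small steps (Psmd2 -0.48 ± 0.09, Psmc5 -0.35 ± 0.13). With any 1 of control replicates 1 and 3 or 24 h replicates 1 and 2 left out, 2 fell. Psmc6, not detected at 24 h, was at least 1.32-fold lower, a call lost without 24 h replicate 3 or without control replicates 1 and 3. The call of Psmc5 was also lost without control replicates 1 and 3 (-0.18), and its other probe did not pass (-0.13). Of 29 ribosomal protein genes 13 rose and 1 fell at a small median of 0.21, which became 0 and 2 at -0.06 after centring, and 7 rose without 24 h replicate 2. Rpl8 rose by 0.46 ± 0.09, a call lost after centring (0.05), and Rpl38 was the 1 that fell (-0.49 ± 0.11). Cell cycle and replication genes had 13 of 38 rising and 2 falling at 0.28 (-0.03 after centring). Without control replicates 1 and 3, 22 rose, and without 24 h replicate 1, 8. The cyclin-dependent kinase inhibitor genes Cdkn1b (0.94 ± 0.13) and Cdkn2c (0.83 ± 0.16) rose. Tyms, thymidylate synthase, fell on its brightest probe (-0.91 ± 0.17), while other probes of it did not pass (0.19 and 0.20).

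The comparison of 24 h with 15 h asks what was still moving late in the exposure. Only 86 of the 14154 probes passed (0.608%), 30 higher (0.212%) and 56 lower (0.396%), although 1928 had an unadjusted p below 0.05. This count depends on single arrays. It was 636 without 24 h replicate 3, 19 and 10 without 24 h replicates 1 and 2, 7 to 11 without any 1 of the 15 h arrays, 56 without control replicate 4, and 238 without control replicates 1 and 3, which enter through the shared spread. With median centring it was 391, with 11 higher and 380 lower, and in the authors' deposited ratios 505, with 7 and 498. Scd1, the stearoyl-CoA desaturase of fatty acid synthesis, was at 2327, 2211 and 2063 at 15 h and 1100, 996 and 1164 at 24 h, against 2795 to 3961 (median 3563) in the controls (24 h minus 15 h -1.02 ± 0.13, adjusted p = 0.00169, and -1.07 without replicate 3). All 3 arrays at 24 h lay below all 3 at 15 h. That was a condition of the selection, as was passing without replicate 3. Npy continued downward, by -0.66 ± 0.12 (adjusted p = 0.0233; -0.59 without replicate 3), and so did Dcn, by -0.58 ± 0.13, with -0.47 on its brightest probe and -0.16, which did not pass, on another. Atf3, a stress-induced factor detected on 1 of 6 controls, had changed by 2.56 at 5 h and 1.54 at 15 h and stood at 0.56 ± 0.14 at 24 h (24 h minus 15 h -0.98 ± 0.16, adjusted p = 0.0151). Tubb6, a tubulin gene, came down in the same way, from 1.53 at 15 h to 0.61 at 24 h, and was no longer called above the controls after median centring (0.35). Atoh7 was detected on all 3 arrays at 15 h and on none of the controls or the 24 h arrays, and was at least 1.53-fold lower at 24 h than at 15 h (adjusted p = 0.00169).

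The 5 rises selected between 15 h and 24 h met the same conditions. Of these rises, Mid1, a microtubule-associated ubiquitin ligase, was the largest. It read 23.4 to 34.6 in the controls, 29.5, 27.2 and 24.7 at 15 h and 74.0, 72.1 and 67.1 at 24 h, a difference of 1.39 ± 0.15 (adjusted p = 0.00117; 1.43 without replicate 3). Gpr17, a receptor of oligodendrocyte precursors, was low at 5 h (-1.91) and at 15 h (-0.99), and returned to 242, 251 and 331 at 24 h against 256 to 301 (median 279) in the controls (24 h minus 15 h 0.96 ± 0.12, adjusted p = 0.00169). Replicate 3 was the highest of the 3, and without it the difference was 0.82. P2ry6, a nucleotide receptor, differed by 0.85 ± 0.14 and the zinc finger gene Ikzf4 by 0.77 ± 0.15. Myom2 was detected on no array at 15 h and was at least 1.77-fold higher at 24 h (adjusted p = 0.0174), with 36.5, 40.9 and 67.8 on the 24 h arrays and replicate 3 the highest. Luzp2 had risen at 15 h (0.33) and had fallen by 24 h (-0.57 ± 0.12), a difference of -0.90 ± 0.14 (adjusted p = 0.0129).

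**Figure D4:**
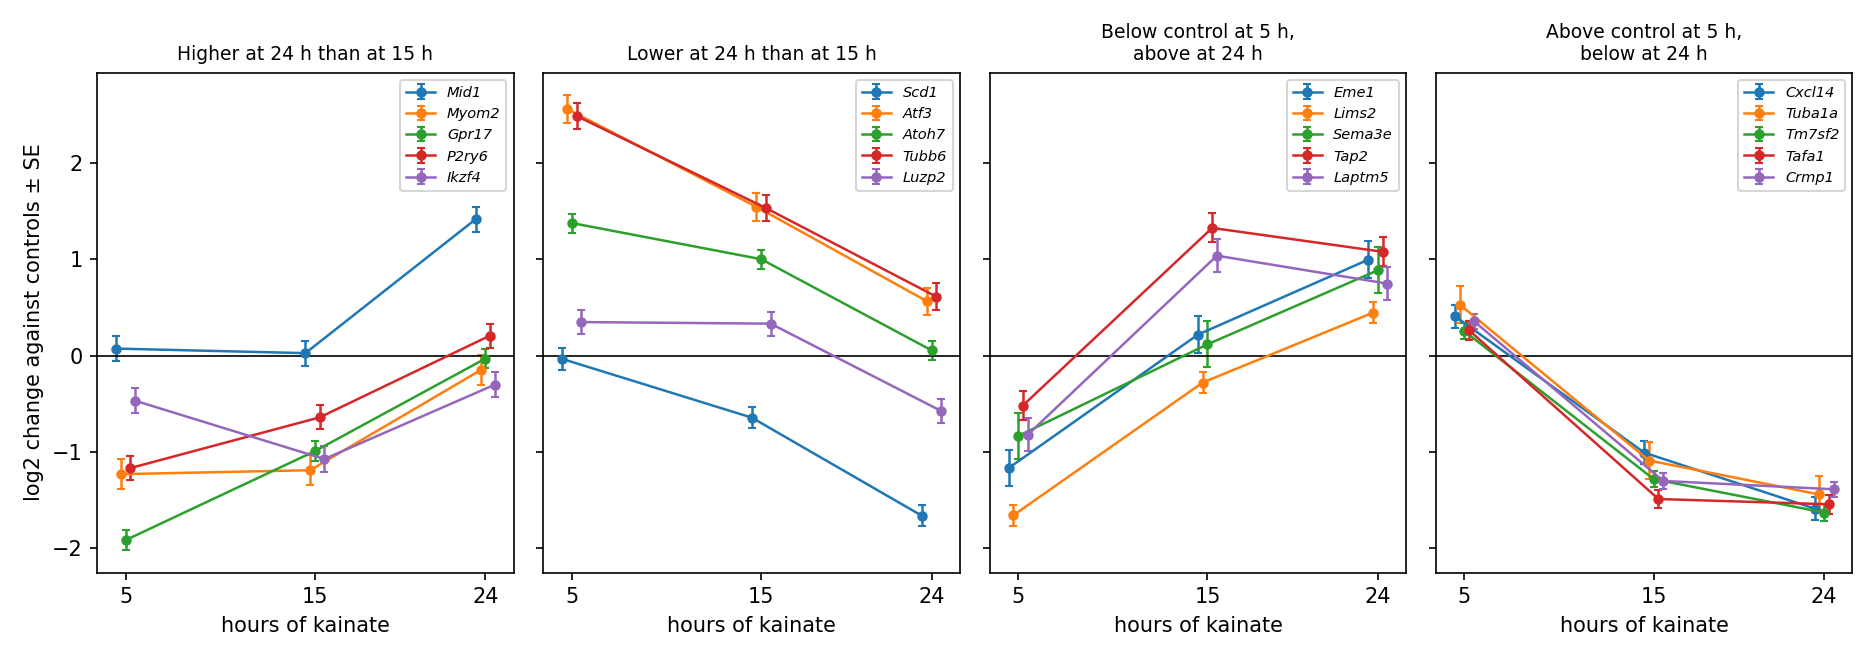
Log2 change against the 6 controls after 5 h, 15 h and 24 h of kainate, with the SE of the fit as error bars, for the 10 genes with the largest tested differences between 15 h and 24 h (left panels) and 10 genes called on opposite sides of the controls at 5 h and 24 h (right panels). Scd1 goes down to -1.66 at 24 h and Mid1 up to 1.42, and the 3 times share their controls. In the left panels the 15 h and 24 h arrays had to lie apart for a gene to be selected. Points of Atoh7 at 24 h, Myom2 at 5 h and 15 h and Sema3e at 5 h come from arrays that did not detect the probe.

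The comparison of 24 h with 5 h sets the late against the early state. Here 5038 probes passed (35.6%), 2633 higher at 24 h (18.6%) and 2405 lower (17.0%). After median centring 775 were higher and 5454 lower, and in the authors' deposited ratios 852 and 4866. Several immediate early genes were lower at 24 h than at 5 h while still above the controls. Fosb differed by -3.11 ± 0.22 (adjusted p = 5.34e-08), Junb by -1.52 ± 0.18, Fos by -0.94 ± 0.22 and Npas4 by -0.88 ± 0.10. Gadd45g was higher at 24 h than at 5 h, by 0.82 ± 0.16. In the immediate early list 3 of 31 were higher and 15 lower. Cholesterol genes moved between these times, with 0 of 22 higher and 13 lower at a median of -1.08. Cell cycle genes had 2 of 38 higher and 15 lower at -0.34. Over all 9824 genes, 20.9% were higher and 16.4% lower at 24 h than at 5 h. List counts between 5 h and 24 h were not recomputed after median centring, which moved the probe counts toward lower.

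Some genes crossed the control level between 5 h and 24 h. They were picked for calls of opposite sign at those times, so the pair of values is a description. Eme1, a subunit of a DNA structure-specific endonuclease, was at -1.17 at 5 h and 1.00 at 24 h, where 2 other probes were at 0.43, which passed, and 0.47, which did not. The semaphorin gene Sema3e, detected on 4 of 6 controls, was called below them at 5 h, where no array detected it, and was at 0.88 at 24 h. Tap2, a peptide transporter for MHC class I, was at -0.52 and 1.08. Laptm5, a lysosomal protein of blood cells, was at -0.82 and 0.75, with 24 h arrays of 288, 302 and 608, and its 24 h value was 0.40 without replicate 3. Lims2 was at -1.66 and 0.45, with another probe at 0.18 that did not pass at 24 h, and both Laptm5 and Lims2 missed the threshold at 24 h after median centring (0.43 and 0.15). In the other direction the chemokine gene Cxcl14 was at 0.41 and -1.59. The sterol reductase gene Tm7sf2 was at 0.25 and -1.63, the tubulin gene Tuba1a at 0.53 and -1.44, Crmp1 at 0.36 and -1.39, and the secreted factor gene Tafa1 at 0.26 and -1.54, detected on 1 of the 3 arrays at 24 h.

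**Figure D5:**
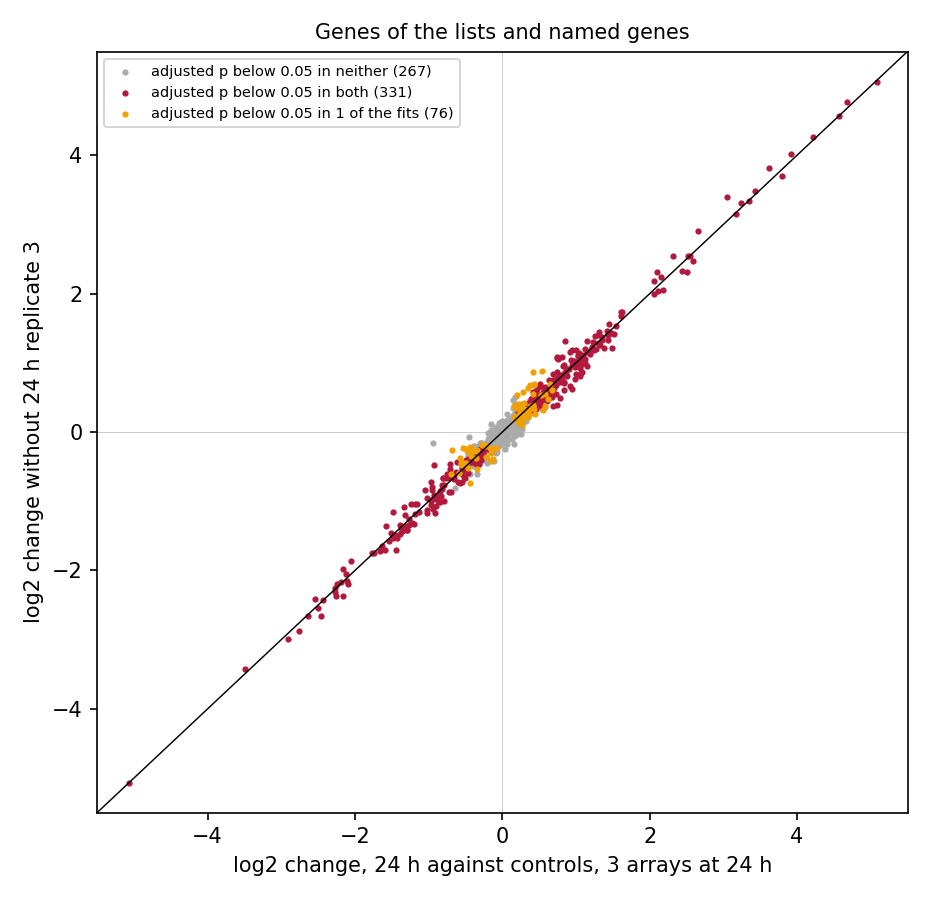
Log2 change at 24 h against the controls for 674 genes of the lists and the named genes, with all 3 arrays at 24 h on the x axis and without replicate 3 on the y axis. The fits share their controls and the other arrays at 24 h, which holds points near the diagonal. Some genes were named only if they passed without replicate 3. In both fits 331 genes passed, in 1 of them 76 and in neither 267. The largest move of a change called in either was 0.46.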

How the data were processed

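Total RNA of 15 samples was hybridised to mouse bead arrays. The deposited signal is a mean bead intensity per target, exported from BeadStudio 3.2.3 without normalization, per the file headers. Detection scores were deposited as a fraction, which equals 1 minus the detection p-value of the target. The deposited normalized table holds a linear ratio, which the values show to be each array over its median and then each target over its median in the controls. Of the gene profile, 9 arrays (72 columns) matched no sample and were not used.

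Probe IDs were paired with targets through equal ratios (24454 pairs) and named from the platform annotation; 20854 targets had 1 gene symbol and 3753 had no single symbol. The deposited accession column beside the signals was not used for names. From the deposited intensity values, limma 3.58.1 in R 4.3.3 ran neqc (negative controls inferred from detection p-values, offset 16, quantile normalization, log2), leaving out 1 bright target with a detection p above 0. The tests covered probes that 3 or more arrays of the 15 detected (p below 0.05). The lmFit and eBayes functions fitted 4 group means to all 15 arrays, with 15.8 residual degrees of freedom including the prior, and moderated two-sided tests were adjusted by Benjamini-Hochberg at 0.05 over all 14154 probes in each of 3 contrasts. Errors are standard errors of the fit. Where no array of the dimmer group detected a gene, its fold is given as a bound. The number of arrays limits the precision. The fit was tested on simulated data. Figures were drawn with Python 3.11.15 and matplotlib 3.10.9.

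The genes named are the 12 largest rises and 12 largest falls at 24 h, detected on all arrays of the brighter group, outside the control range on all 3 arrays at 24 h and passing without replicate 3. To these come the 3 largest changes of each list, the 5 largest rises and 5 largest falls from 15 h to 24 h, and 5 genes each way with opposite calls at 5 h and 24 h. The genes picked from 15 h to 24 h had to be detected on all arrays of the brighter group. Their 15 h and 24 h ranges had to lie apart, and they had to pass without replicate 3. The comparison, its lists and this rule were chosen with earlier results of these data known, and no list is independent support. Other list members described were chosen after their values were seen. No pairing by replicate number was used. Deviations from the group mean of same-numbered control and 24 h arrays correlated at -0.06, -0.15 and 0.17. These values cannot settle whether same-numbered samples shared a preparation.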

Additional observations from a re-analysis of the deposited data

Results flagged for a closer look

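Among the 126 probes named by the rule, 5 had 1 control array far from the other 5, by the gap between neighbours over the range (critical value 0.625 for 6 arrays). Chance flags about 1 in 20 such groups. Npas4 was at 42.83 on control replicate 4 and at 39.2 to 40.16 on the other controls, small beside its 911 to 1151 at 24 h. Rnf138rt1 was at 54.79 on control replicate 3 and at 30.33 to 34.54 on the others. Atf3 was at 31.56 on control replicate 3 against 19.89 to 22.12. Crmp1 was at 6078 on control replicate 1 against 6721 to 7093. C1qb was at 40.62 on control replicate 4 against 25.47 to 29.74. These are normalised signals.

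For 2 genes the 15 h and 24 h groups were called on opposite sides of the controls, and the difference between the times was itself tested. Luzp2 was above the controls at 15 h and below them at 24 h, with 24 h minus 15 h at -0.90 on the log2 scale (limma adjusted p = 0.0129). Lims2 was below at 15 h and above at 24 h, with a difference of 0.72 (adjusted p = 0.0174), and its 24 h call against the controls was lost after median centring and in the authors' deposited ratios.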

How the results depend on the processing

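The count of probes changed at 24 h against the controls, 6087, lay between 5138 and 6881 over all alternatives and between 5241 and 6377 with 1 array left out. At 1.5-fold or more it was 2868, and 1713 without background correction. The share of higher calls fell from 49.1% to 22.4% with median centring and 25.4% with the authors' deposited ratios. Of the 6087 calls, 4551 and 4706 were called again in the same direction under these settings and 2 in the opposite direction under each. The 86 probes between 15 h and 24 h were 391 with median centring, 140 without background correction, 505 with the authors' ratios, 139 without a detection filter, 2 when only the arrays compared were fitted, 1800 with array weights and 238 without control replicates 1 and 3. With 1 array left out that count ranged from 7 to 636. The count between 5 h and 24 h, 5038, lay between 3927 and 6697. With the replicate block the counts were 5671 at 24 h and 50 between 15 h and 24 h, though no label states that the numbers pair the samples. With the beadchip as a fixed block 6232 probes changed and as a random block 6116. Within all 3 chips 95.5% of the 6087 kept their direction, a share raised by calling them from the same arrays. Of 170 probes that the naming rule or the text names, which leave out those of Olig1, Dlx1, Dlx2 and Slc1a3, 154 were called. Many were named for large changes, and the 12 rises and 12 falls had to pass without 24 h replicate 3. That choice in part fixes the counts that follow. Of the 154, 133 passed in every setting run and 21 lost the call in at least 1. The call was lost with median centring for 15, with the authors' ratios for 13 and without 24 h replicate 3 for 5. Srebf2, Psmc5, Psmc6, Rps16 and Hbb-bh1 lost it in the most settings (11, 8, 12, 12 and 6). Another 7 probes not called gained a call in at least 1 setting, and Asns, at -0.01, turned to a called rise of 0.26 without control replicates 1 and 3. Of 693 list medians recomputed, 199 moved by more than the SD of the 24 h arrays, 29 of 33 lists under median centring and 14 without 24 h replicate 3. The causes were not tested. Probes near background limit depth: folds of probes not detected in a group are bounds.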
